A study of Homo sapiens with 6 samples.

Results

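The genes described here are 10 members of the cyclin D, CDK4/6 and retinoblastoma axis: the D-type cyclins CCND1, CCND2 and CCND3, the kinases CDK4 and CDK6, the inhibitors CDKN1B, CDKN2A and CDKN2B, the pocket protein RB1 and the transcription factor E2F1. They were taken by symbol from the 17468 genes of the table, and all 10 were found. The libraries come from Colo800 and A375, both established human melanoma cell lines, infected with viruses that carry a short hairpin RNA against the ETS-family transcription factor ETV1 (ETV1-sh2 or ETV1-sh1) or a scrambled hairpin. RNA was taken 4 days after infection. Each line and hairpin has 1 library, so there are 4 libraries with an ETV1 hairpin and 2 scrambled ones. The infections were made in duplicate, per the series' design text, but the table has 1 column per line and hairpin.

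The labels conflict on the treatment. Their treatment field gives 5 nM trametinib, an inhibitor of MEK, for the ETV1-sh2 libraries, DMSO for the ETV1-sh1 libraries, and 1 uM vemurafinib (spelled so in the labels; vemurafenib inhibits BRAF) for the scrambled libraries, and the treatment protocol gives 48 hours of siRNA and then 8 hours of drug. The series' design text names no drug. As labelled, each drug goes with 1 hairpin in both lines, so an effect of a drug and one of a hairpin cannot be told apart in any comparison below except that between the lines. Whether the columns stand for separate cultures is not stated. With 1 library per line and hairpin, the spread behind the hairpin and line p-values is how far hairpin differences disagree between Colo800 and A375. It is moderated by the spread of all genes tested. Technical scatter is part of that disagreement and cannot be told apart. No scatter between repeat cultures of a line was measured.

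In the textbook account of G1, D-type cyclins bind CDK4 or CDK6, and the complexes phosphorylate the retinoblastoma protein, which then releases E2F factors that switch on genes for DNA synthesis. INK4 inhibitors, such as the products of CDKN2A and CDKN2B, bind CDK4 and CDK6 themselves, while p27, the product of CDKN1B, binds cyclin-CDK complexes and restrains CDK2. In melanoma cyclin D1 is a known output of the BRAF, MEK and ERK pathway, and CDKN2A is a known susceptibility gene of the disease.

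Between 10418 and 11013 genes per library had at least 1 FPKM (a read level divided by transcript length and library size). Their depth in reads is unknown. Relative to the A375 scrambled library, the size of the smallest steps in the values put the other 5 libraries at 0.768 to 2.10 times its depth. ETV1 itself was at 9.80 FPKM with ETV1-sh2, 54.6 with ETV1-sh1 and 180.3 with the scrambled hairpin in Colo800, and at 3.46, 34.6 and 82.8 FPKM in the same order in A375, so that both ETV1 hairpins left less ETV1 than the scrambled hairpin in each line. The melanocyte lineage factor SOX10 lay between 353 and 712 FPKM in all 6 libraries. MITF, another factor of that lineage, lay between 38.4 and 116.5 FPKM in Colo800 and between 8.61 and 12.6 FPKM in A375. The lineage genes MLANA (0.301 to 1.85 FPKM) and TYRP1 (0.286 to 1.70 FPKM) were low in every library of both lines, and PMEL had no entry. DCT and TYR, pigment enzymes, were under 0.1 FPKM in every A375 library. Of the markers of other cell types, PTPRC, CD3E and CDH5 lay under 0.13 FPKM in every library and KRT1 and KRT5 under 0.23 FPKM. CD68, another leukocyte marker, was at 305.6 FPKM in the A375 ETV1-sh2 library, 3.49 times the A375 scrambled level, and between 76.6 and 138.8 FPKM in the other 5. That library also has the highest relative depth by the rough estimate above and the lowest CCND1 level, and the part of either in the results was not tested. Summed levels ran from 0.196 to 9.95 FPKM for the 3 keratinocyte genes and from 0.104 to 4.79 FPKM for the endothelial genes. The 5 fibroblast genes summed to 29.7 FPKM with ETV1-sh2, 10.7 with ETV1-sh1 and 9.74 with the scrambled hairpin in Colo800, and to 34.6, 15.5 and 13.1 FPKM in A375. COL1A1, PDGFRB and LUM, the 3 of those 5 that were tested, were each higher with ETV1-sh2 (limma, adjusted p from 0.00906 to 0.0294). COL1A2 and DCN were too low to be tested. In Colo800 COL1A2 was at 1.32 FPKM with ETV1-sh2 and 1.78 with the scrambled hairpin, and DCN at 0.441 and 0.113. In A375 COL1A2 was at 0.0130 and 0.00967 FPKM, and DCN at 4.08 and 0.423. The part of these 5 genes in the results below was not tested.

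With ETV1-sh2, the hairpin that left least ETV1, cyclin D1 and E2F1 fell and cyclin D3 and p27 rose. CCND1 changed by -1.86 on the log2 scale (SE 0.297), E2F1 by -1.24 (SE 0.20), CCND3 by 0.98 (SE 0.194) and CDKN1B by 0.98 (SE 0.184), in the fit over both lines. CDK4, CDK6, CDKN2A and RB1 did not pass. Neither did CDKN2B, but its fit averages Colo800 with A375, where its level was too low to show a fall. In these bulk libraries, fewer cells expressing a gene and less of its RNA per cell cannot be told apart. Of the 9 members tested, 2 were called lower and 2 higher at an adjusted p under 0.05 in limma, where 16.7% of all 11129 genes tested were called, 9.00% lower and 7.73% higher. CCND2 was too low to be tested. The median log2 change of the 9 members was -0.52, against 0.05 over all genes tested. That median is the fitted value of CDKN2B, which was near 0 FPKM in A375. By line, the members' median difference with ETV1-sh2 was -0.77 in Colo800 and -0.19 in A375.

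**Figure D1:**
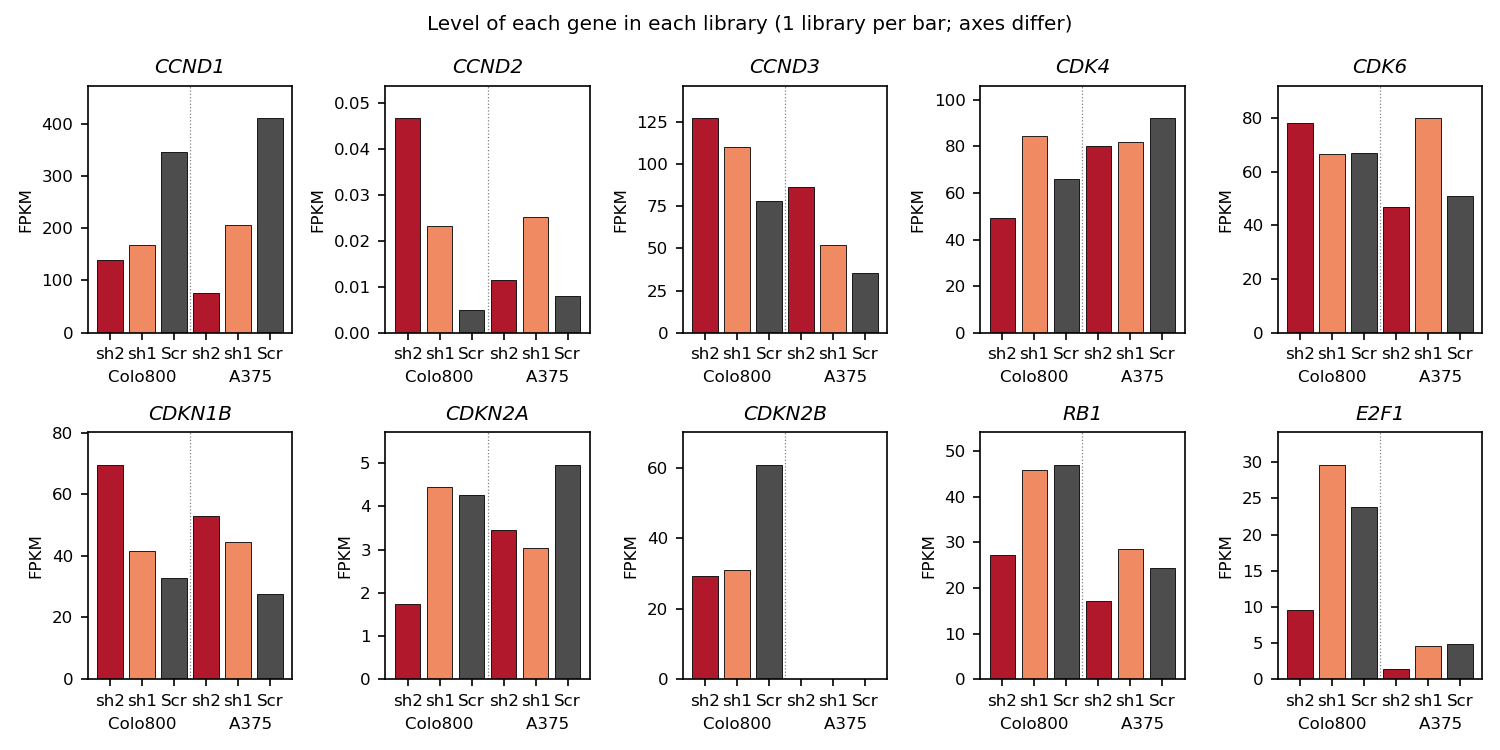
FPKM of each of the 10 genes (vertical axes start at 0 and differ between panels) in the ETV1-sh2 (red), ETV1-sh1 (orange) and scrambled (grey) libraries of Colo800 and A375, 1 library per bar. Within each line CCND1 is highest and CCND3 and CDKN1B are lowest in the scrambled library, and CDKN2B has no visible bar in A375.

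CCND1 (ENSG00000110092), which encodes cyclin D1, was at 138.8 FPKM with ETV1-sh2, 167.3 with ETV1-sh1 and 346.2 with the scrambled hairpin in Colo800. In A375 it was at 76.8 FPKM with ETV1-sh2, 207.3 with ETV1-sh1 and 411.3 with the scrambled hairpin. All 4 ETV1 hairpin libraries lay below the scrambled library of their line, as in 16.8% of all genes tested. With ETV1-sh2 40.1% of the scrambled level was left in Colo800 and 18.7% in A375. With ETV1-sh1 48.3% was left in Colo800 and 50.4% in A375. By level, CCND1 ranked 828th of 17468 genes with ETV1-sh2 in Colo800 and 314th with the scrambled hairpin, and 1395th and 185th in A375.

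The fall of CCND1 with ETV1-sh2 had an adjusted p of 0.0164 in limma. With ETV1-sh1 the fitted log2 change was -1.01 (95% interval -1.73 to -0.30) with an adjusted p of 0.146. The difference of ETV1-sh2 from ETV1-sh1 was -0.84 on the log2 scale, with an adjusted p of 0.107 in limma. The A375 libraries with ETV1-sh2 and ETV1-sh1 stood far apart and the Colo800 ones close together. The test of whether the effect of both hairpins differed between Colo800 and A375 gave a log2 difference of 0.52 (SE 0.870, adjusted p = 1.00 in limma). That test averages the hairpins of a line and counts the gap between them as spread. It cannot settle whether ETV1-sh2 alone acted differently in the lines. Over 11 alternatives to the main fit, the log2 change of CCND1 with ETV1-sh1 ran from -1.32 to -0.71. It was called under 2 of the 11, each of which left out an ETV1-sh2 library, and under no other.

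CCND3 (ENSG00000112576), which encodes cyclin D3, moved the other way. In Colo800 it was at 127.4 FPKM with ETV1-sh2, 110.3 with ETV1-sh1 and 78.0 with the scrambled hairpin. In A375 it was at 86.6 FPKM with ETV1-sh2, 52.3 with ETV1-sh1 and 35.5 with the scrambled hairpin. Within each line both hairpin libraries lay above the scrambled one, with ETV1-sh2 highest, and 19.7% of all genes tested were above the scrambled library of their line in all 4 hairpin libraries. Across lines the groups overlapped, since the A375 ETV1-sh1 value lay below the Colo800 scrambled value. The adjusted p in limma was 0.0252 with ETV1-sh2 and 0.226 with ETV1-sh1, for which the fitted log2 change was 0.52. CCND2 (ENSG00000118971), which encodes cyclin D2, lay between 0.00497 and 0.0467 FPKM in the 6 libraries, levels at which no change was read.

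The make-up of the D-type cyclins differed between hairpins. FPKM is per length, so levels of different genes can be set side by side. The summed FPKM of the 3 cyclins was 266.3 with ETV1-sh2, 277.6 with ETV1-sh1 and 424.3 with the scrambled hairpin in Colo800, and 163.4, 259.6 and 446.8 in A375. CCND3 made up 47.8% of that sum with ETV1-sh2, 39.7% with ETV1-sh1 and 18.4% with the scrambled hairpin in Colo800. In A375 its share was 53.0% with ETV1-sh2, 20.1% with ETV1-sh1 and 7.95% with the scrambled hairpin. In A375 with ETV1-sh2 the level of CCND3 was above that of CCND1, at a ratio of 1.13, against 0.0864 in the A375 scrambled library. These sums and shares have no replicate within a line and were not tested.

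**Figure D2:**
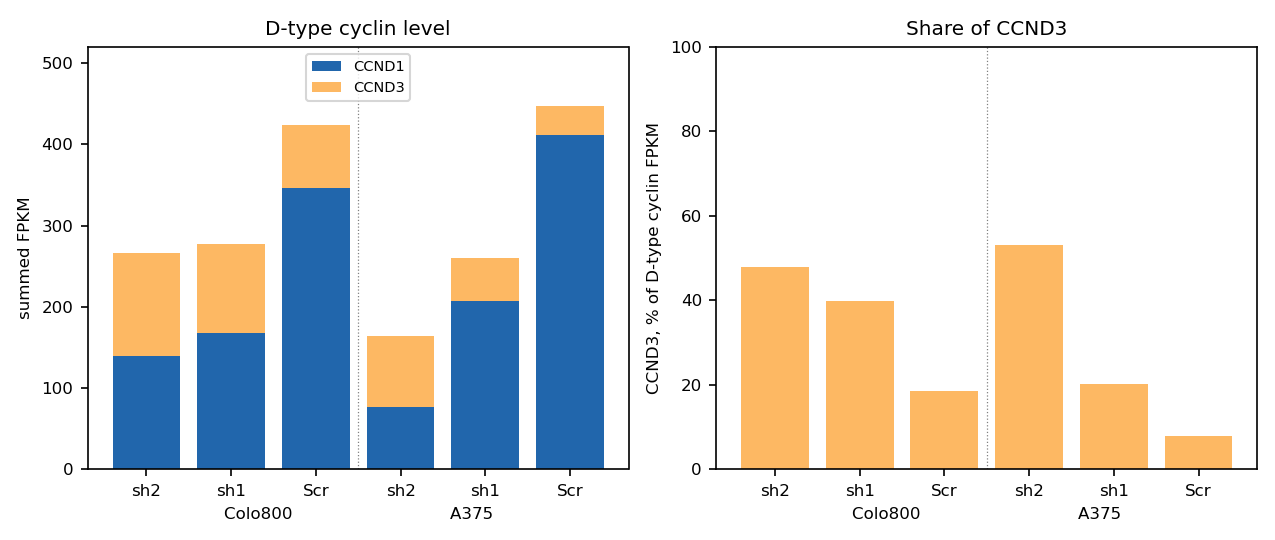
Left, FPKM of CCND1 (blue) and CCND3 (yellow) stacked for each library; right, the share of CCND3 in the summed FPKM of CCND1, CCND2 and CCND3, in percent. Libraries run ETV1-sh2, ETV1-sh1, scrambled in Colo800 and then in A375, and the CCND3 share is 47.8% and 53.0% with ETV1-sh2, against 18.4% and 7.95% in the scrambled libraries.

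ETV1 belongs to the ETS family, whose members bind DNA with a GGAA core, so promoters were searched for CCGGAA on either strand. RefSeq promoter windows (250 bases before to 50 after a start, build GRCh38.p14) matched 8 of the 10 genes, with 12 windows; CCND1 and CCND2 had no entry, and the RB1 window lies inside the gene, far downstream of its annotated start, so the main start of RB1 was not searched. The hexamer was in 1 of the 12, against 17.2% of 35116 windows of that length. That window belongs to CCND3 (chr6:41941759-41942058, minus strand) and is printed because it is the one window searched that holds the hexamer, in capitals, starting 166 bases upstream of the start. A match is a run of letters and does not show binding.
CCND3: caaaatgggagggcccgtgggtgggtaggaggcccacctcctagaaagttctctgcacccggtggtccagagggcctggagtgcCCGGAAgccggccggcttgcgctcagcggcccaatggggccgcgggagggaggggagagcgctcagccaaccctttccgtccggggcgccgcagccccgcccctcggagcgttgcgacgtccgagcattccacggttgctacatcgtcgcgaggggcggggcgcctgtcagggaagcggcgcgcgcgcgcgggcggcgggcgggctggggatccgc

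CDK4 (ENSG00000135446) and CDK6 (ENSG00000105810), the kinase partners of the D-type cyclins, showed no change that passed. CDK4 was at 49.1 FPKM with ETV1-sh2, 84.3 with ETV1-sh1 and 65.9 with the scrambled hairpin in Colo800, and at 80.4, 81.8 and 92.2 FPKM in A375. Its fitted log2 change with ETV1-sh2 was -0.31 (95% interval -0.82 to 0.21), and with ETV1-sh1 it was 0.09. CDK6 was at 78.2 FPKM with ETV1-sh2, 66.5 with ETV1-sh1 and 66.8 with the scrambled hairpin in Colo800, and at 46.8, 79.9 and 50.8 FPKM in A375. Its fitted log2 change with ETV1-sh2 was 0.05 (95% interval -0.55 to 0.66), and that with ETV1-sh1 was 0.32 (95% interval -0.29 to 0.92). For both kinases hairpin and scrambled values overlapped, and the intervals leave room for changes of either sign. The order of the kinases differed between libraries: CDK4 stood at 1.81 times CDK6 in the A375 scrambled library and at 0.627 times CDK6 in the Colo800 ETV1-sh2 library. The D-type cyclin sum over the sum of both kinases was 2.09 with ETV1-sh2, 1.84 with ETV1-sh1 and 3.20 with the scrambled hairpin in Colo800, and 1.28, 1.61 and 3.12 in A375. CDK4 overlaps TSPAN31 in the reference annotation, and with the strandedness not given their reads cannot be told apart with certainty.

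CDKN1B (ENSG00000111276), which encodes p27, was at 69.6 FPKM with ETV1-sh2, 41.5 with ETV1-sh1 and 32.9 with the scrambled hairpin in Colo800. The A375 values were 52.8 FPKM with ETV1-sh2, 44.5 with ETV1-sh1 and 27.6 with the scrambled hairpin. All 4 hairpin libraries lay above the scrambled library of their line, as in 19.7% of all genes tested, and ETV1-sh2 gave the higher value in each line. CDKN1B reached 2.11 times the scrambled level with ETV1-sh2 in Colo800 and 1.91 times in A375, and 1.26 and 1.61 times with ETV1-sh1. The adjusted p in limma was 0.0218 with ETV1-sh2 and 0.222 with ETV1-sh1, for which the fitted log2 change was 0.50. The level of the D-type cyclins together was 3.83 times that of CDKN1B with ETV1-sh2, 6.69 times with ETV1-sh1 and 12.9 times with the scrambled hairpin in Colo800, and 3.09, 5.84 and 16.2 times in A375.

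Of the INK4 genes among the members, CDKN2A was low in every library and CDKN2B was almost absent in A375. The INK4 genes outside the members, CDKN2C and CDKN2D, lay between 15.8 and 33.9 FPKM and between 10.8 and 17.8 FPKM. CDKN2A (ENSG00000147889), whose locus encodes p16 and, in another reading frame, p14ARF, was at 1.75 FPKM with ETV1-sh2, 4.44 with ETV1-sh1 and 4.26 with the scrambled hairpin in Colo800. A375 had 3.45 FPKM with ETV1-sh2, 3.03 with ETV1-sh1 and 4.97 with the scrambled hairpin. The gene-level value does not separate its transcripts, and the groups overlapped. Its fitted log2 change with ETV1-sh2 was -0.68 (95% interval -1.41 to 0.05, adjusted p = 0.165 in limma). CDKN2B (ENSG00000147883), which encodes p15, was at 29.4 FPKM with ETV1-sh2, 31.0 with ETV1-sh1 and 60.9 with the scrambled hairpin in Colo800. In A375 it lay between 0.00331 and 0.0146 FPKM in the 3 libraries. Both Colo800 hairpin libraries were thus near 50% of the scrambled one (48.2% with ETV1-sh2 and 51.0% with ETV1-sh1). That is 1 library against 1 in a single line and was not tested. CDKN2B and CDKN2A are overlapped by the antisense gene CDKN2B-AS1 in the reference annotation, so their reads are uncertain to that extent.

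RB1 (ENSG00000139687), which encodes the retinoblastoma protein, was at 27.2 FPKM with ETV1-sh2, 45.9 with ETV1-sh1 and 47.1 with the scrambled hairpin in Colo800. The A375 libraries had 17.2 FPKM with ETV1-sh2, 28.5 with ETV1-sh1 and 24.4 with the scrambled hairpin. In each line ETV1-sh2 gave the lowest value. The fitted log2 change was -0.62 with ETV1-sh2 (SE 0.170, adjusted p = 0.0537 in limma) and 0.09 with ETV1-sh1. ETV1-sh2 lay below ETV1-sh1 by a log2 difference of -0.71, with an adjusted p of 0.0434 in limma, a call that was kept under 2 of 11 alternatives. LPAR6 lies within RB1 in the reference annotation.

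E2F1 (ENSG00000101412), the transcription factor that RB1 holds back, was at 9.57 FPKM with ETV1-sh2, 29.7 with ETV1-sh1 and 23.8 with the scrambled hairpin in Colo800. In A375 it was at 1.44 FPKM with ETV1-sh2, 4.54 with ETV1-sh1 and 4.84 with the scrambled hairpin. With ETV1-sh2 40.3% of the scrambled level was left in Colo800 and 29.8% in A375, while ETV1-sh1 left 124.9% and 93.7%. The fall with ETV1-sh2 had an adjusted p of 0.0166 in limma. Against ETV1-sh1, E2F1 was lower with ETV1-sh2 by a log2 change of -1.36 (SE 0.20, adjusted p = 0.0126 in limma). The fit's error in that comparison draws on all 6 libraries, the scrambled ones included. Of the 9 members tested, E2F1 and RB1 were called lower with ETV1-sh2 than with ETV1-sh1 and none higher, where 13.7% of all genes tested were called, 6.91% lower and 6.82% higher.

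**Figure D3:**
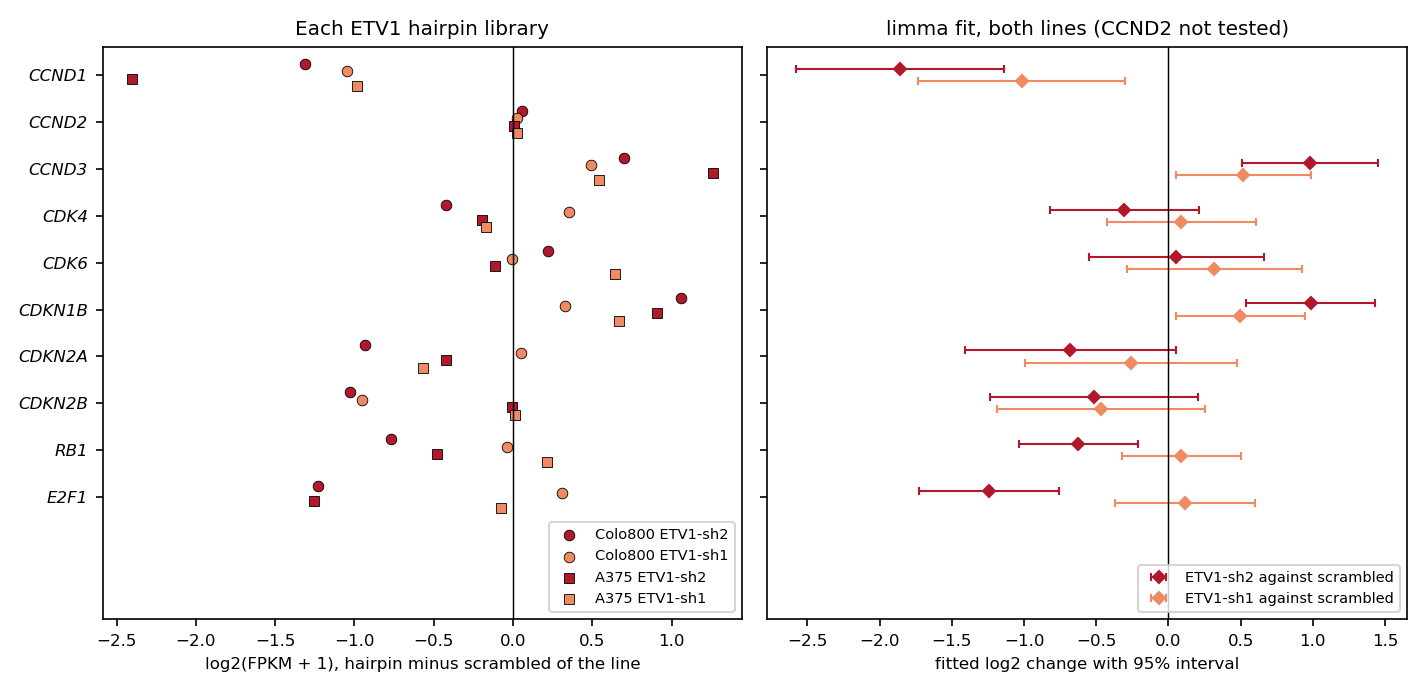
Left, the log2(FPKM + 1) difference of each ETV1 hairpin library from the scrambled library of its line, for Colo800 (circles) and A375 (squares), ETV1-sh2 in red and ETV1-sh1 in orange; right, the fitted log2 change over both lines with its 95% interval for the 9 genes tested. CCND1 lies left of 0 and CCND3 and CDKN1B right of 0 in all 4 libraries, and E2F1 lies near -1.2 with ETV1-sh2 and near 0 with ETV1-sh1.

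The calls with ETV1-sh2 rest on few libraries. Without the A375 scrambled library none of the 4 was kept (adjusted p from 0.0910 to 0.175), without the Colo800 scrambled library only CCND1 was, and without the filter on low values none was (adjusted p from 0.0717 to 0.0792), while all signs stayed the same. With ETV1-sh1 no member passed in limma, where 2.28% of all genes tested were called, 0.773% higher and 1.51% lower. An unadjusted p under 0.05 was found for 3 of 9 members (CCND1, CCND3 and CDKN1B), against 2095 of the 11129 genes tested. With both hairpins pooled against scrambled, which counts the gap between hairpins as spread, no member and 0% of all genes passed in limma. The same 3 members had an unadjusted p under 0.05, against 1204 of the 11129 genes tested. The fitted log2 changes in that fit were -1.44 for CCND1, 0.75 for CCND3 and 0.74 for CDKN1B. Whether the effect differed between Colo800 and A375 was tested on the average of both hairpins, with the gap between them again counted as spread. It cannot settle whether 1 hairpin alone acted differently in the lines. No member and 0% of all genes passed in limma. None of the 9 members had an unadjusted p under 0.05, against 66 of the 11129 genes tested.

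The promoter of E2F1 is a textbook target of the E2F factors themselves. The E2F consensus was searched as TTTCCCGC, TTTCGCGC, TTTGCCGC or TTTGGCGC on either strand, and 3.31% of the 35116 windows held it. Of the 12 member windows searched, which leave out CCND1, CCND2 and the main start of RB1, that of E2F1 alone did, with a pair of non-overlapping matches. It is printed (chr20:33686336-33686635, minus strand, GRCh38.p14) because E2F1 fell together with S phase genes, with the matches, which start 33 and 20 bases upstream of the start, in capitals; the first is on the opposite strand.
E2F1: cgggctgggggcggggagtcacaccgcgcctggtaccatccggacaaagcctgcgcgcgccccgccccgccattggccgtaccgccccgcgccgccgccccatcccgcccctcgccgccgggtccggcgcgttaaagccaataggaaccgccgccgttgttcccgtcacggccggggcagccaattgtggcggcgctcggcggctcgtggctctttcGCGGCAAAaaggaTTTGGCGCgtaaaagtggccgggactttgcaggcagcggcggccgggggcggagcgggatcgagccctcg

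A list of 16 E2F-regulated S phase genes was read beside E2F1. With ETV1-sh2 12 of the 16 fell and none rose in limma, where 9.00% of all genes tested were called lower, and the list's median log2 change was -1.34 against 0.05 over all genes tested. With ETV1-sh1 none of the 16 passed and the median was -0.39. Of the 16, 5 had an unadjusted p under 0.05, against 2095 of the 11129 genes tested. The thymidylate synthase gene TYMS was at 3.53 FPKM with ETV1-sh2, 44.8 with ETV1-sh1 and 93.6 with the scrambled hairpin in Colo800, and at 2.36, 27.9 and 46.8 FPKM in A375. Its log2 change with ETV1-sh2 was -4.11 (SE 0.198, adjusted p = 0.00299 in limma). The helicase subunit MCM2 changed by -2.19 with ETV1-sh2, the replication factor CDC45 by -1.83 and the origin licensing factor CDC6 by -1.99. The E2F consensus was in a promoter window of 9 of the 13 list genes with an entry. By window it was in 9 of 20, against 3.31% of all windows. The list was chosen as genes regulated by E2F, so this share follows from the choice and is no separate result. By library, the list's median log2 difference was -1.44 with ETV1-sh2 and -0.31 with ETV1-sh1 in Colo800, and -1.24 and -0.54 in A375, against -1.23 and 0.31 in Colo800 and -1.26 and -0.08 in A375 for E2F1. With ETV1-sh2 E2F1 and the list's median lay close together in both lines on this scale, and with ETV1-sh1 the median lay below E2F1. The list was wide, from -4.38 to 0.18 with ETV1-sh2 in Colo800 and from -4.28 to 0.20 in A375. The scale also understates changes of low genes, and E2F1 was at 1.44 FPKM in A375 with ETV1-sh2.

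**Figure D4:**
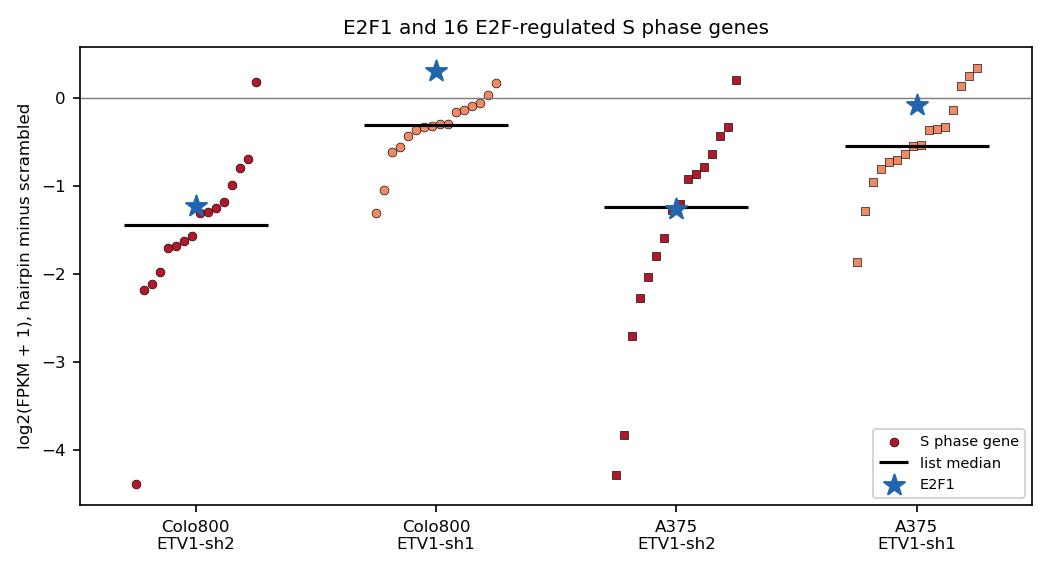
The log2(FPKM + 1) difference from the scrambled library of the line for 16 E2F-regulated S phase genes (small symbols in rank order), their median (black line) and E2F1 (blue star), for each hairpin library of Colo800 and A375. With ETV1-sh2 the medians are -1.44 and -1.24 and E2F1 lies at -1.23 and -1.26, while with ETV1-sh1 E2F1 lies at 0.31 and -0.08.

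Other genes of the G1 to S transition were read by list. Of 11 further cyclins and kinases, CDK2 and the cyclin E1 gene CCNE1, which act after the D-type cyclins, fell with ETV1-sh2 and the cyclin C gene CCNC rose. That is 2 of 11 lower and 1 of 11 higher, where 9.00% of all genes tested were called lower and 7.73% higher. CDK2 was at 25.9 FPKM with ETV1-sh2, 147.9 with ETV1-sh1 and 115.0 with the scrambled hairpin in Colo800, and at 11.0, 60.7 and 41.5 FPKM in A375, with a log2 change of -1.96 (SE 0.164, adjusted p = 0.00766 in limma). CDK2 lies within 2 kb of the pigment gene PMEL in the reference annotation. PMEL had no entry, so its level could not be read beside that of CDK2. CCNE1 changed by -1.32 (adjusted p = 0.0151 in limma) and CCNC by 0.73 (adjusted p = 0.0354 in limma), while CDC25A, a phosphatase that activates CDK2, was at -1.01 and did not pass (adjusted p = 0.0513 in limma). With ETV1-sh1 no gene of this list passed. An unadjusted p under 0.05 was found for 2 of the 11, close to the share over all genes (2095 of 11129).

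Of the 4 other CDK inhibitors none passed with either hairpin in limma. Of those 4, 1 had an unadjusted p under 0.05 with ETV1-sh2 and none with ETV1-sh1. Over all 11129 genes tested, 3965 had one with ETV1-sh2 and 2095 with ETV1-sh1. Fitted log2 changes with ETV1-sh2 were -1.21 for CDKN1C, which encodes p57, 0.36 for CDKN2D, -0.21 for CDKN2C and 0.22 for CDKN1A, which encodes p21. Of the 11 other pocket proteins, E2F and DP factors, E2F2 fell with ETV1-sh2 (log2 change -1.05, adjusted p = 0.0431 in limma), and 1 of 11 is close to the 9.00% of all genes called lower. E2F8 at -0.82, TFDP2 at 0.49 and E2F6 at 0.38 did not pass. Of 11 parts of ubiquitin ligases that act on G1 regulators, none passed with either hairpin in limma. With ETV1-sh2 4 of the 11 had an unadjusted p under 0.05, close to the share over all genes (3965 of 11129). CUL1 was at -0.55, CKS1B at -0.62, CUL4A at -0.45 and FBXO4 at -0.65.

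The lines differed in 4 of the 9 members tested, which is not above the share over all genes in either direction together. In Colo800 against A375, CDKN2B, E2F1, CCND3 and RB1 were higher and none of the 9 members lower, where 57.1% of all genes tested were called in limma, 31.8% higher and 25.3% lower. CDKN2B passed the filter on low values through Colo800 alone, so that it had to differ; apart from it 3 members were called. The log2 difference was 2.22 for E2F1 (SE 0.163, adjusted p = 0.000247 in limma), 0.91 for CCND3 (SE 0.159, adjusted p = 0.00399) and 0.74 for RB1 (SE 0.139, adjusted p = 0.00519). For CDKN2B it was 5.28 with a pseudocount of 1 and 8.47 with one of 0.1. The calls of E2F1, CCND3 and RB1 were kept under 10 of 10 alternatives. The 3 Colo800 values of E2F1 and of CDKN2B lay above all 3 A375 values, as in 26.2% of all genes tested, and those of CCND3 and RB1 overlapped between lines.

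The other members tested showed no line difference that passed. CDK4 was called lower in Colo800 under 3 of 10 alternatives (smallest adjusted p 0.0194 in limma, with quantile normalization), and CDK6 was called higher under 1, without the Colo800 ETV1-sh1 library (adjusted p = 0.0498). CCND1 was at 346.2 FPKM in Colo800 and 411.3 in A375 with the scrambled hairpin, and its fitted log2 difference was 0.10 (95% interval -0.49 to 0.68). The values were -0.38 for CDK4, 0.28 for CDK6, 0.18 for CDKN1B and -0.15 for CDKN2A (limma, adjusted p from 0.107 to 0.629). Of the 16 S phase genes 12 were called higher in Colo800 and none lower, where 31.8% of all genes tested were called higher and 25.3% lower. The list's median log2 difference was 1.06, against 0.07 over all genes tested.

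Of the genes beside CDKN2A and CDKN2B on chromosome 9, MTAP, an enzyme of methionine salvage, was at 16.8, 13.8 and 13.2 FPKM in the ETV1-sh2, ETV1-sh1 and scrambled libraries of Colo800 and at 66.2, 89.5 and 89.1 FPKM in A375. Its log2 difference of Colo800 from A375 was -2.40 (SE 0.187, adjusted p = 0.000281 in limma). MTAP was thus lower in the line in which CDKN2B was higher, and was present in both. KLHL9 lay 0.91 lower on the log2 scale in Colo800 (adjusted p = 0.00407 in limma). DMRTA1 lay between 1.02 and 1.80 FPKM in Colo800 and between 1.70 and 2.34 FPKM in A375, and ELAVL2 did not exceed 6.48 FPKM in any library.

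**Figure D5:**
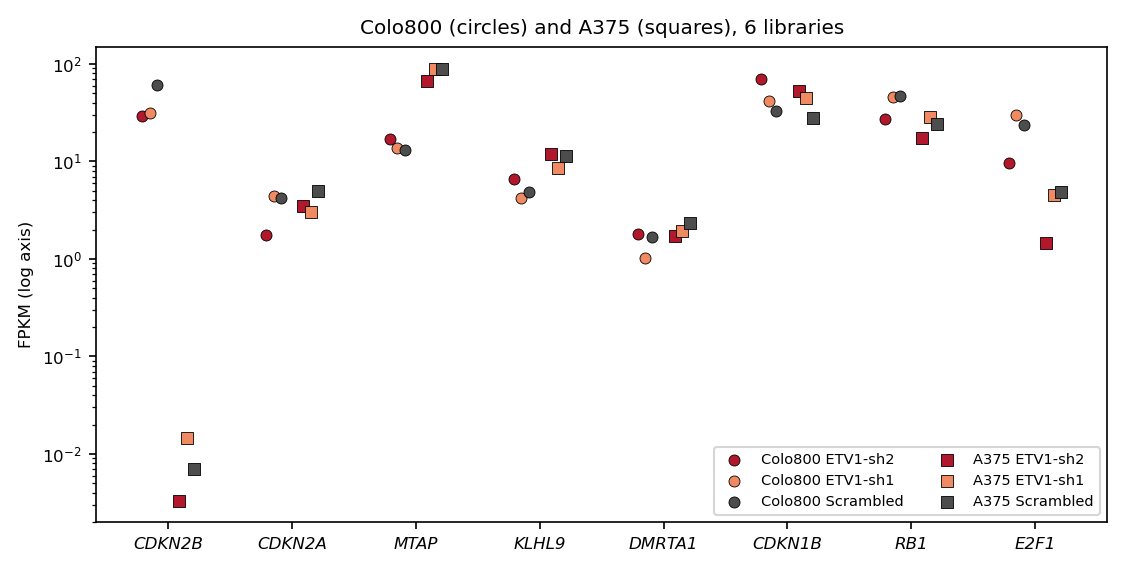
FPKM on a log axis of the inhibitor genes, 3 genes near CDKN2A and CDKN2B, RB1 and E2F1 in Colo800 (circles) and A375 (squares), coloured by hairpin. CDKN2B lies between 29.4 and 60.9 FPKM in Colo800 and between 0.00331 and 0.0146 FPKM in A375, while MTAP lies higher in A375.

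The genes whose differences from scrambled lay nearest to those of CCND1 over the 4 hairpin libraries, among 7198 genes with a mean of at least 10 FPKM, were ASF1B, a histone chaperone, RXRG, a retinoid receptor, and KIF23, a kinesin of cytokinesis. Their root mean square differences from CCND1 were 0.16, 0.17 and 0.20 on the log2 scale. With a pseudocount of 1 this scale understates changes at low levels, and these genes were low in A375. There RXRG was at 0.418 FPKM with ETV1-sh2 and 6.66 with the scrambled hairpin. KIF23 was at 1.89 and 15.4 FPKM, and ASF1B at 2.10 and 14.6 FPKM. CCND1 itself was at 76.8 and 411.3 FPKM. ASF1B differed by -1.30 with ETV1-sh2 and -0.74 with ETV1-sh1 in Colo800, and by -2.33 and -0.91 in A375, against -1.31, -1.04, -2.40 and -0.98 for CCND1. Nearest to CDK6 were FCHO2, RAB31 and OGT, with root mean square differences of 0.06, 0.09 and 0.10. All these differences share the 2 scrambled libraries.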

How the data were processed

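RNA sequencing of 6 libraries was analysed, 1 for each combination of 2 cell lines and 3 hairpins. The deposited table holds FPKM for 17468 genes, for which the submitters' processing notes name STAR 2.4, Cufflinks 2.2.1, Cuffnorm and hg19. Not given in the sources used here are the annotation, strandedness, scaling by Cuffnorm and whether duplicate infections were pooled.

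Tests used limma 3.58.1 in R 4.3.3 on log2 of FPKM with a pseudocount of 1, its moderated variance following mean level, and covered the 11129 genes that averaged 1 FPKM or more in the 6 libraries. This scale understates changes of low genes. Benjamini-Hochberg adjustment ran over every gene tested, and a call is an adjusted p under 0.05. A model of line plus hairpin gave the comparisons of hairpins and of lines (2 residual degrees of freedom), a model of line plus knockdown state that of both hairpins together (3), and their difference between lines by an interaction term (2). Same-line libraries were set against the scrambled library of that line, so the pairing comes from the cell line. The step was tested on simulated data. The members and the 11 gene lists beside them were chosen with earlier results of these data known. Named were all members, up to 4 genes per list by the moderated statistic of ETV1-sh2 against scrambled, and 3 genes nearest in pattern to CCND1 and to CDK6. Alternatives changed the pseudocount, filter, scaling, variance trend, cell line term and library set. Promoter sequences are RefSeq's on GRCh38.p14.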

Additional observations from a re-analysis of the deposited data

Results flagged for a closer look

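CDKN1A, the gene of the inhibitor p21, moved in opposite directions in the lines. It was at 226.8 FPKM with ETV1-sh2, 234.3 with ETV1-sh1 and 125.9 with the scrambled hairpin in Colo800, where both hairpin libraries lay above the scrambled one. It was at 750.4, 466.5 and 987.0 FPKM in A375, where both lay below it. The log2 differences were 0.84 and 0.89 in Colo800 and -0.39 and -1.08 in A375 with ETV1-sh2 and ETV1-sh1. The interaction term put the effect in Colo800 above that in A375 by 1.60 on the log2 scale. Its adjusted p was 1.00 in limma, so the difference did not pass. That term counts the gap between the hairpins of a line as spread.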

How the results depend on the processing

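All 4 calls with ETV1-sh2 were kept with a pseudocount of 0.1, with quantile normalization and with no variance trend. With no filter on low values, 0 members and 0 genes passed with ETV1-sh2 and 0 and 0 for ETV1-sh2 against ETV1-sh1, and 0 genes with ETV1-sh1; the cause was not tested. With the cell line left out (no replicate block) these counts were all 0 as well. The fit then counts the difference between lines as spread. With no variance trend 119 genes passed with ETV1-sh1, against 254, and 1 member, E2F1, passed for ETV1-sh2 against ETV1-sh1, against 2. Leaving out 1 library at a time gave 0 to 1 members and 0 to 834 genes with ETV1-sh1, 0 to 4 members and 83 to 1974 genes with ETV1-sh2 (1862 with all libraries), and 0 to 2 members and 0 to 1739 genes for ETV1-sh2 against ETV1-sh1 (1528 with all). The 0 of that last comparison came without either ETV1-sh1 library. Those fits have 1 residual degree of freedom, and a lone library of a hairpin is assumed to vary like the others. The interaction could not be fitted without a scrambled library. The log2 difference of the leukocyte marker CD68 between Colo800 and A375 ran from -0.87 to 0.52 when 1 library was left out, against -0.31. Of 11 alternatives, CCND1 kept its call with ETV1-sh2 under 8, CDKN1B and E2F1 under 7 and CCND3 under 4. With quantile normalization 49.2% of the calls between the lines were higher in Colo800, against 55.8%. Depth is unknown, so no counting interval could be given.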

Other observations

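TFDP1, which encodes the DP1 partner of the E2F factors, was at 80.4 FPKM with ETV1-sh2, 26.6 with ETV1-sh1 and 66.2 with the scrambled hairpin in Colo800. A375 had 88.2, 33.8 and 75.6 FPKM in the same order. It was lower with ETV1-sh1 (log2 change -1.21, SE 0.158, adjusted p = 0.0281 in limma), and with ETV1-sh2 the change was 0.25 (adjusted p = 0.302). ETV1-sh2 against ETV1-sh1 gave 1.46 (adjusted p = 0.00751 in limma). TFDP1 was the 1 gene called with ETV1-sh1 among the other pocket proteins, E2F and DP factors and was named after its values were seen. In the same list E2F7, a repressor E2F also named after its values were seen, was lower with ETV1-sh2 than with ETV1-sh1 (log2 change -1.27, adjusted p = 0.0373 in limma).

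The cyclin E2 gene CCNE2 was at 6.002 FPKM with ETV1-sh2, 3.99 with ETV1-sh1 and 16.04 with the scrambled hairpin in Colo800, and at 4.91, 0.537 and 4.73 FPKM in A375. Its log2 change with ETV1-sh1 was -1.83 (adjusted p = 0.0729 in limma), while CCNE1 was at 0.21 with ETV1-sh1. It too was named after its values were seen.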
